A study of Mus musculus with 12 samples.

Results

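Messenger RNA molecules per cell were compared between mouse B cells that had divided 8 or more times without acquiring the plasma cell surface protein CD138 (Div8neg) and B cells that had not divided (Div0). The comparison asked which genes grew more than, about as much as, or less than the total mRNA of a cell. It covers the 8175 of 21671 named genes (37.7%) that reached 1 or more mRNA molecule per cell in both libraries of either group. Of these, 5098 reached that level in both groups, 3041 only in Div8neg and 36 only in Div0. A gene that entered through 1 group alone was bound to differ between the groups, so counts are also given for the 5098. Near the limit, Tet2 entered with 1.00 and 1.097 molecules per cell in Div8neg, and Cdip1 was left out with 0.999 and 1.05.

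Splenic B cells (B220+ CD43-) carrying the division dye CFSE or CTV were transferred into uMT mice, which lack B cells, rested overnight and were exposed to LPS, the bacterial agonist of Toll-like receptor 4. They were sorted 3 days later by dye dilution and CD138. The labels give every library as female, 8 weeks old and of strain B6.SJL-Ptprca Pepcb/BoyJ, while the series' design text gives C57/BL6J donors, and whether donors were pooled was not stated. Both groups hold 2 libraries, 1 from each of hosts 196 and 197, so each Div8neg library has a Div0 partner from the same animal. The Div0 cells had been through the same transfer and LPS exposure as the dividing cells, and are therefore not untreated B cells. RNA came from 40000 sorted cells per library with a fixed amount of ERCC spike-in RNA, from which the authors derived molecules per cell. A molecule number per cell thus depends on the number of cells sorted and on the spike-in pipetted, and in bulk RNA a change in every cell cannot be told apart from a change in the mix of cells.

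A resting B cell is small and holds little RNA. After LPS it enlarges into a blast, builds ribosomes and mitochondria, and replicates its genome, and part of the progeny goes on to secrete antibody. When the whole mRNA pool enlarges, a gene can lose share of the pool while each cell holds more of its mRNA, so molecules per cell and share of the total are different quantities. Both are given here. Per-cell growth is the fold in molecules per cell, and relative growth is that fold over the fold of the total.

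The Div0 libraries held 13197206 and 11541406 gene counts and the Div8neg libraries 14157901 and 12813565, with 683173 and 495636 against 215148 and 180169 spike-in counts. The B cell markers Ms4a1, Cd79a, Cd79b, Pax5, Ebf1, Cd22 and Cd74 were above 3 molecules per cell in all 4 libraries. Of 74 markers of 8 other lineages, 63 stayed below 1 molecule per cell in all 4, and no lineage list held more than 0.0221% of the total. Summed monocyte and macrophage markers went from 3.06 to 3.32 in Div0 to 13.6 to 17.7 in Div8neg, led by Cd68 and Itgam. Within that list Marco went from 0.509 and 0.420 to 0.261 and 0.197, and C1qc from 0.297 and 0.292 to 0.115 and 0.254. Summed dendritic markers were at 1.83 to 2.44 in Div0 and 13.0 to 13.5 in Div8neg, led by Flt3 and Itgax. Neutrophil markers were at 1.43 to 6.55 in Div0 and 7.51 to 11.0 in Div8neg. Platelet markers were at 0.456 to 0.734 and 1.78 to 2.85. Their part in the results below was not tested. Sdc1, which encodes CD138, was at 0.0737 and 0.165 molecules in Div0 and 0.289 and 0.519 in Div8neg, against 43.4 and 36.0 in the CD138-positive cells of the same hosts.

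Total mRNA was 27359 molecules per cell in Div0 of host 196 and 33513 in host 197, against 96792 and 103515 in Div8neg. The Div8neg cells held 3.54 times the total of their undivided partners in host 196 and 3.09 times in host 197, a mean of 3.31 ± 0.317 (SD, n = 2 hosts). Both Div8neg values lay above both Div0 values. An exact permutation test of 2 against 2 libraries cannot go below p = 0.333, so the ratio is given as a value. The gain was 69433 molecules per cell in host 196 and 70002 in host 197, which is closer between hosts than the 2 ratios are.

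Nearly every gene contributed to this gain. By limma (adjusted p under 0.05 over all 8992 genes tested), 7898 genes rose per cell (96.6%), 54 fell (0.661%) and 223 were not called. Among the 5098 genes measured in both groups, 4879 rose (95.7%) and 27 fell. Genes that went down took away only 172 molecules per cell in host 196 and 231 in host 197. The gain was spread widely: 618 genes were needed to make up 50% of it in host 196 and 646 in host 197, and the 50 genes that gained most held 13.9% and 13.2%. Because each library's total carries most of the per-cell error, that error is shared by all genes (median SE 0.22 on the log2 scale, against 0.07 for relative growth), and the p-values rest on 2 hosts only. In the per-cell fit limma estimated infinite prior degrees of freedom, against 5 residual ones, so each gene's spread was replaced by the trend over all genes and very small p-values became possible. With the spread of each gene alone, 7840 genes rose and 46 fell.

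Relative to the total, 2878 genes grew more (35.2%) and 3497 grew less (42.8%), while 1800 were not called. Among the 5098 genes measured in both groups these numbers were 1837 and 2334, and 4809 of them (94.3%) had relative growth of the same sign in both hosts. The split moved with the settings. With a pseudocount in proportion to the library total in place of a fixed 0.1 molecules, 3285 grew more and 3058 less. Models of the counts change the test and the total together, and gave 3002 and 2889 (DESeq2), 3266 and 3194 (edgeR with TMM factors) and 3560 and 2907 (edgeR with summed counts as the total). All 2878 genes of the first class and 3058 of the second kept their call with the proportional pseudocount. Growing less was seldom a fall in number, since 3220 of the 3497 (92.1%) still rose per cell.

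**Figure D1:**
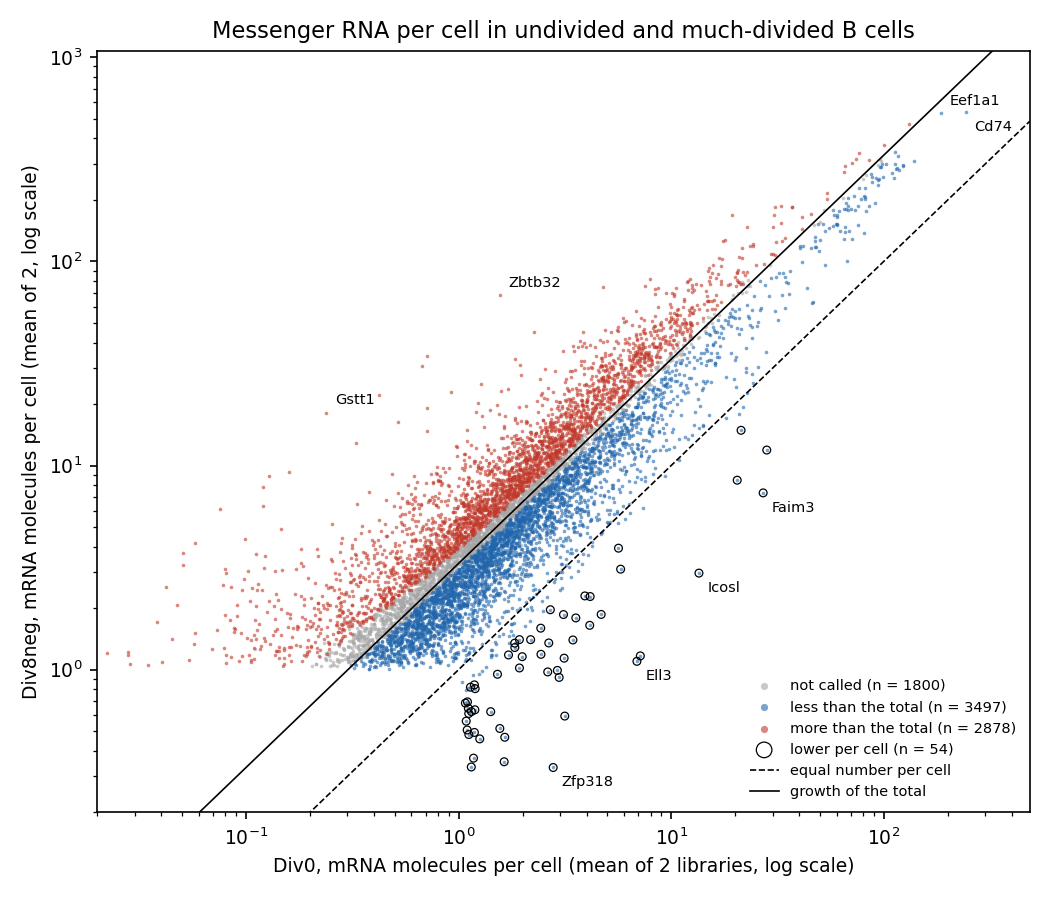
Each point is 1 of the 8175 genes, with the mean of the 2 Div0 libraries on the x axis and of the 2 Div8neg libraries on the y axis, both in mRNA molecules per cell on log scales. Red points grew more than the total, blue points less, grey points were not called, and open circles mark the 54 genes that fell per cell. The cloud lies along the solid line of the total's growth, and the circled genes lie below the dashed line of equal number.

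Most departures from the total were small. The 95% interval of relative growth lay within 1.5-fold of the total for 4262 genes (52.1%), of which 2524 were nonetheless called as growing more or less. A relative growth of at least 2-fold upward was called for 459 genes (5.61%) and at least 2-fold downward for 535 (6.54%). In the 5098 genes these numbers were 2812, 166 and 415. Of the 535 genes whose share at least halved, 258 still rose per cell, 223 were not called per cell and 54 fell. Across the 5098 genes the fitted per-cell growth was 1.41-fold at the 5th percentile, 3.12-fold at the median and 6.102-fold at the 95th.

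Summed as a budget, the 2878 genes that grew more went from 30.2 to 46.5% of all molecules in host 196 and from 31.2 to 46.8% in host 197. The 3497 genes that grew less went from 53.8 to 37.95% and from 53.1 to 37.6%. These classes were chosen by the same values, so their sums describe size and support nothing. Between Div0 and Div8neg, 17.1% of the pool changed hands between genes in host 196 and 16.6% in host 197. The same measure between the 2 hosts of 1 group was 2.80% in Div0 and 2.24% in Div8neg.

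Level and exon length both moved with the classes. With the 5098 genes cut into 5 equal bins by mean level over the 12 libraries, median relative growth (log2) went from -0.49 in the lowest bin to 0.29 in the highest. The share that grew more went from 2.35 to 60.4%, and the share that grew less from 80.5 to 28.2%. That mean includes Div8neg, so a gene that grew less also has a lower mean by construction. The fixed 0.1 molecules added before the log also understates the growth of low genes. The median relative growth of all tested genes was -0.11 with it and -0.0010 with a pseudocount in proportion to the library total. The bins were not redone with that pseudocount. Median exon length was 3110 bases over all 8175 genes, 2621 in genes that grew more, 3622 in genes that grew less and 3989.5 in genes that fell per cell. In bins of exon length, median relative growth went from 0.16 in the shortest bin to -0.30 in the longest, and the share that grew more from 49.8 to 21.6%. The part of level and length in the results below was not tested.

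The genes that gained most in number were among the most abundant. Eef1a1, the elongation factor that brings aminoacyl-tRNA to the ribosome, went from 164 and 209 molecules per cell in Div0 to 516 and 546 in Div8neg. Actb, cytoplasmic beta-actin, went from 115 and 147 to 459 and 484. Cd74, the invariant chain of MHC class II, was the most abundant gene in Div0 at 215 and 270 and reached 522 and 552. All 3 genes rose per cell, as 96.6% of the 8175 genes did, yet they stood on different sides of the total. Eef1a1 grew less (relative growth -0.20 ± 0.05 log2 (SE), limma adjusted p = 0.0018) and Actb more (0.14 ± 0.04, adjusted p = 0.0044), both within 1.5-fold. Cd74 grew 2.43-fold and 2.04-fold in the 2 hosts and fell behind by 0.57 ± 0.04 (adjusted p = 3.7e-07).

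The other large gains were Tmsb4x, an actin monomer binder, Actg1, Ppia (cyclophilin A), the chaperone Hsp90ab1, the ribosomal proteins Rpl28 and Rps2, and Ptma (prothymosin alpha). Actg1 rose from 68.9 and 84.5 to 334 and 345 molecules, and Ptma from 56.7 and 75.1 to 287 and 302. Both grew more than the total, by 0.43 ± 0.03 and 0.45 ± 0.04 log2. Tmsb4x stood at 0.17 ± 0.05, a call that was lost without the Div0 library of host 196 (0.15, limma adjusted p = 0.050). Rpl28 stood at -0.11 ± 0.04, and 3 of the 4 single libraries each ended its call when left out (Div0 of host 197 -0.04, Div8neg of host 196 -0.12, Div8neg of host 197 -0.09). Actb and Actg1 are near-identical over their coding parts, and how the authors' counting split such reads is not given in the sources used here.

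Gene lists set the members against the total. Beside every list stands the same count over all 8175 genes, of which 35.2% grew more, 42.8% grew less and 52.1% stayed within 1.5-fold, with a median relative growth of -0.07 log2 and a median per-cell growth of 3.15-fold.

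**Figure D2:**
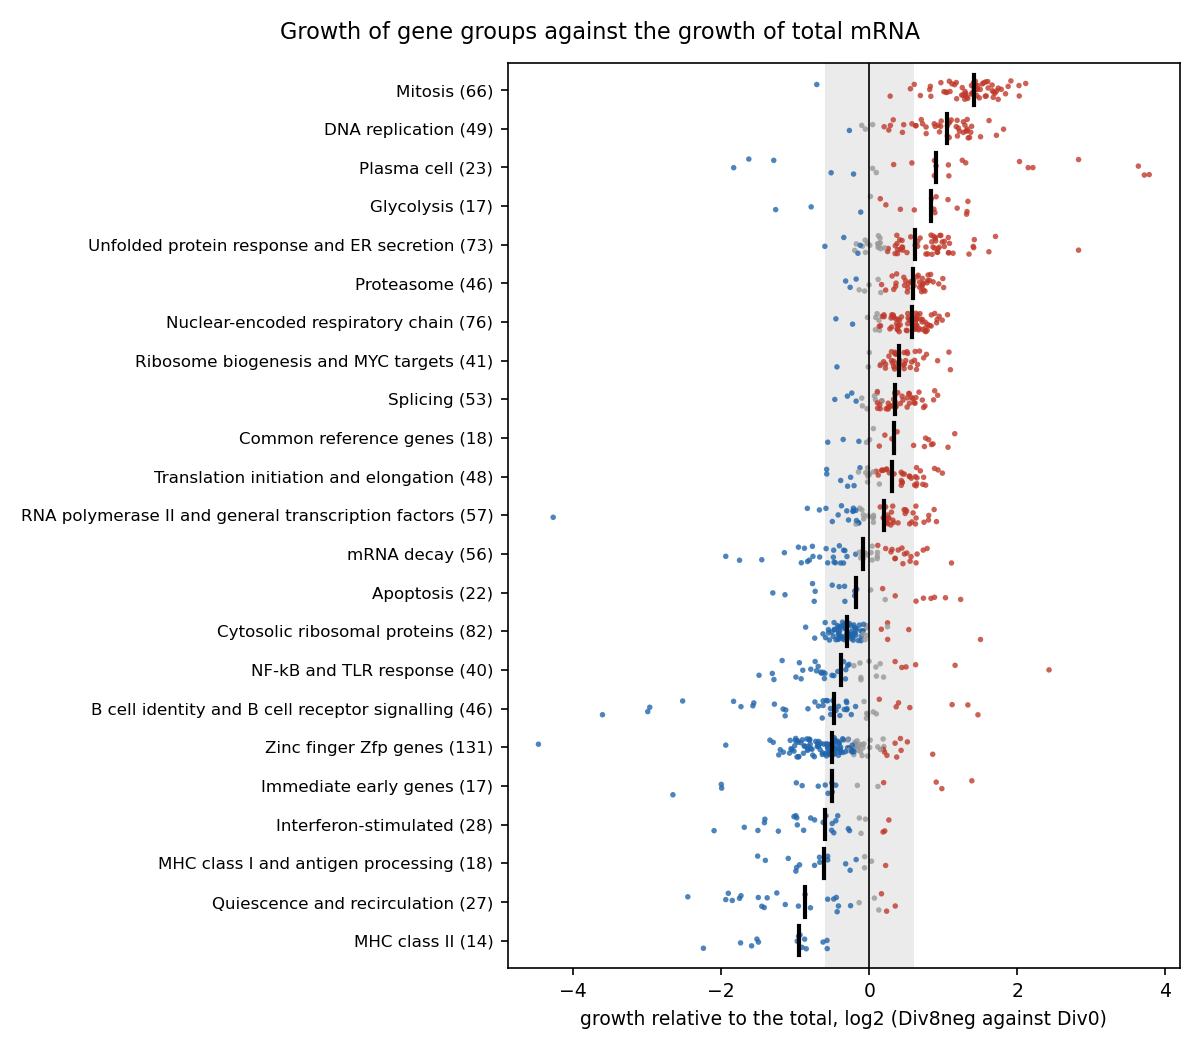
Each point is 1 gene of the list named at the left (number of genes in brackets), with its relative growth on the x axis in log2 units, where 0 is the growth of the total. Red points grew more, blue points less and grey points were not called, black bars are list medians, and the shaded band is 1.5-fold to either side. Mitosis and DNA replication genes lie to the right of 0 but for 1 or a few genes. Genes of the MHC class II list all lie to the left.

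Of the 23 lists, mitosis had the highest median. Of 66, 65 grew more and 1 less, and 57 at least doubled their share, with a median relative growth of 1.41 log2 and a median per-cell growth of 8.79-fold. Since 36 of them were below 1 molecule in a Div0 library, the 30 measured in both groups are the stricter count: 29 grew more and 1 less, with a median of 1.41. Summed, the list held 79.5 and 97.7 molecules per Div0 cell and 786 and 835 per Div8neg cell. Ccnb1, cyclin B1, went from 1.01 and 1.39 molecules to 18.1 and 18.6. Plk1, the kinase that drives entry into and passage through mitosis, went from 1.37 and 2.04 to 23.1 and 24.4. Ccnb2 (cyclin B2) went from 1.79 and 2.15 to 27.1 and 28.1, and Cdc20, the activator of the anaphase-promoting complex, from 1.27 and 1.77 to 19.4 and 20.3. Every Div8neg library held over 10 times the Div0 value of its own host for these 4 genes, and their relative growth was 2.11 ± 0.07, 2.03 ± 0.10, 2.02 ± 0.08 and 1.91 ± 0.08 log2. Kif2c, a microtubule-depolymerising kinesin at the list median, went from 0.508 and 0.663 to 5.69 and 6.09. It passed the limit of 1 molecule through Div8neg alone and had to differ.

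Promoters of genes that act late in the cell cycle are known for CCAAT boxes, bound by the factor NF-Y, and for the cell cycle genes homology region, whose core is TTTGAA. The stretches of 150 bases before the RefSeq start (GRCm38.p6) are shown for 3 mitosis genes that rose over 10-fold and, for contrast, for H2-Ob, a gene of MHC class II whose number per cell was not called as changed. Capitals mark CCAAT and TTTGAA on either strand.
Ccnb2 (chr9:70421555-70421704, minus strand): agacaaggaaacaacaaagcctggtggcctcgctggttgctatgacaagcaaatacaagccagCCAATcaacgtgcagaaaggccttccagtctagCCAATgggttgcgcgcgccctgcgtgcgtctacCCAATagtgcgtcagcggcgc
Cdc20 (chr4:118437344-118437493, minus strand): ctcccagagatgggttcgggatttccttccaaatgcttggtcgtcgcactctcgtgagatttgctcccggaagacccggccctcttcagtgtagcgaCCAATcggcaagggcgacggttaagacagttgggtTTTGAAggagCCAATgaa
Plk1 (chr7:122159285-122159434, plus strand): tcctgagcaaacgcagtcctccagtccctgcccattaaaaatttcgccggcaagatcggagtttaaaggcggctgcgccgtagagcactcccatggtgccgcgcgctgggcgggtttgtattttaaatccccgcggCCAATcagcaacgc
H2-Ob (chr17:34238755-34238904, plus strand): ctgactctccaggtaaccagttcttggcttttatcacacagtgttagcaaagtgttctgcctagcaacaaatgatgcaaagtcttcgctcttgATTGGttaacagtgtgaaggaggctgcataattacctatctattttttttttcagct
The stretch of Ccnb2 holds 3 CCAAT matches, that of Cdc20 2 with 1 TTTGAA between them, and that of Plk1 1. H2-Ob holds 1 CCAAT match, on the other strand. In the RefSeq windows of 250 bases before to 50 after each start, searched on both strands, CCAAT was in 75.4% of 57 mitosis promoters, 38.3% of 8349 promoters of the compared genes and 37.4% of all 32851 promoters. TTTGAA was in 73.7%, 12.3% and 17.9% of the same sets, and both motifs together in 64.9%, 5.23% and 6.95%. Among promoters of the genes that doubled their share or more, 50.9% held CCAAT and 24.8% TTTGAA. These 459 genes include 57 of the mitosis list, so the sets overlap. CCAAT was in 66.2% of promoters of the endoplasmic reticulum list, 58% for DNA replication, 40.6% for the respiratory chain and 31.9% for ribosomal proteins. TTTGAA was in 9.23%, 16%, 8.70% and 4.17% of these. Of the 13 promoters of the MHC class II list, 10 held CCAAT and 0 TTTGAA. The gene ID matched a RefSeq promoter for 6612 of the 8175 genes. A match is a stretch of letters and no measure of binding.

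DNA replication genes followed. Of 49, 45 grew more and 1 less, 26 at least doubled their share, and the median relative growth was 1.06 log2 (6.88-fold per cell). Of the 34 measured in both groups, 30 grew more and 1 less. Rrm2, the regulated subunit of the enzyme that makes deoxynucleotides, went from 3.23 and 4.46 molecules to 43.8 and 46.7. Mcm10, which acts in origin firing, went from 0.426 and 0.564 to 6.05 and 6.61, and Cdc6, which loads the replicative helicase, from 0.431 and 0.633 to 5.75 and 6.75. Cdc45, part of the active helicase, went from 1.08 and 1.34 to 11.4 and 12.8. Relative growth of these 4 ran from 1.50 ± 0.09 for Cdc45 to 1.81 ± 0.07 for Rrm2. Lig1, the ligase that joins lagging-strand fragments, stood at the list median with 2.93 and 3.88 against 23.2 and 24.4. Mcm10 and Cdc6 passed the limit of 1 molecule through Div8neg alone and had to differ.

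Energy metabolism grew ahead of the total in both its branches. Of 17 glycolysis genes 13 grew more and 3 less (median 0.84 log2, 5.92-fold per cell), and of the 12 measured in both groups 10 and 1. Tpi1 went from 5.37 and 6.94 molecules to 49.6 and 52.7, and Pgam1 from 7.13 and 9.63 to 67.4 and 70.3. Slc16a1, the lactate exporter MCT1, which passed the limit of 1 molecule through Div8neg alone, went from 0.448 and 0.631 to 5.08 and 5.27. Against these stood Pdk1, a kinase that inhibits pyruvate dehydrogenase, with 0.796 and 0.894 against 1.12 and 1.28. Pdk1 too passed the limit of 1 molecule through Div8neg alone, and its relative growth was -1.26 ± 0.09. Of 76 nuclear-encoded subunits of the respiratory chain 68 grew more and 2 less, with a narrow range from -0.45 to 1.06 log2 and a median of 0.57 (4.91-fold per cell). Atp5g1, a ring subunit of ATP synthase, went from 5.12 and 6.96 to 39.97 and 43.4. Cycs, cytochrome c, went from 1.32 and 1.79 to 10.2 and 11.1. The respiratory list rose from 1.91 and 1.99% of all molecules to 2.79 and 2.76%.

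The proteasome degrades ubiquitin-tagged proteins. Of its 46 genes 38 grew more and 3 less (median 0.59 log2, 4.98-fold per cell). Psmb7, a subunit of the proteolytic core, went from 1.57 and 2.17 molecules to 12.8 and 12.9, and Psmd8, of the regulatory cap, from 4.10 and 5.22 to 30.0 and 32.0. For both genes the lower Div8neg library was over 5 times the higher Div0 library.

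Genes of protein folding and secretion in the endoplasmic reticulum grew ahead of the total in these cells sorted as CD138-negative. Of 73, 53 grew more and 4 less, and 14 at least doubled their share (median 0.62 log2, 5.08-fold per cell). Of the 61 measured in both groups, 47 grew more and 4 less. Sdf2l1, a chaperone cofactor, went from 2.91 and 4.52 molecules to 34.3 and 46.7, and Creld2, induced by misfolded protein, from 2.78 and 4.52 to 29.0 and 46.7. Derl3, which helps to draw misfolded protein out of the endoplasmic reticulum, went from 0.563 and 0.860 to 14.6 and 23.7. All 3 were higher in host 197 than in host 196 in both groups. Derl3 passed the limit of 1 molecule through Div8neg alone and had to differ. The list held 1.09 and 1.16% of the total in Div0 and 1.78 and 2.09% in Div8neg.

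**Figure D3:**
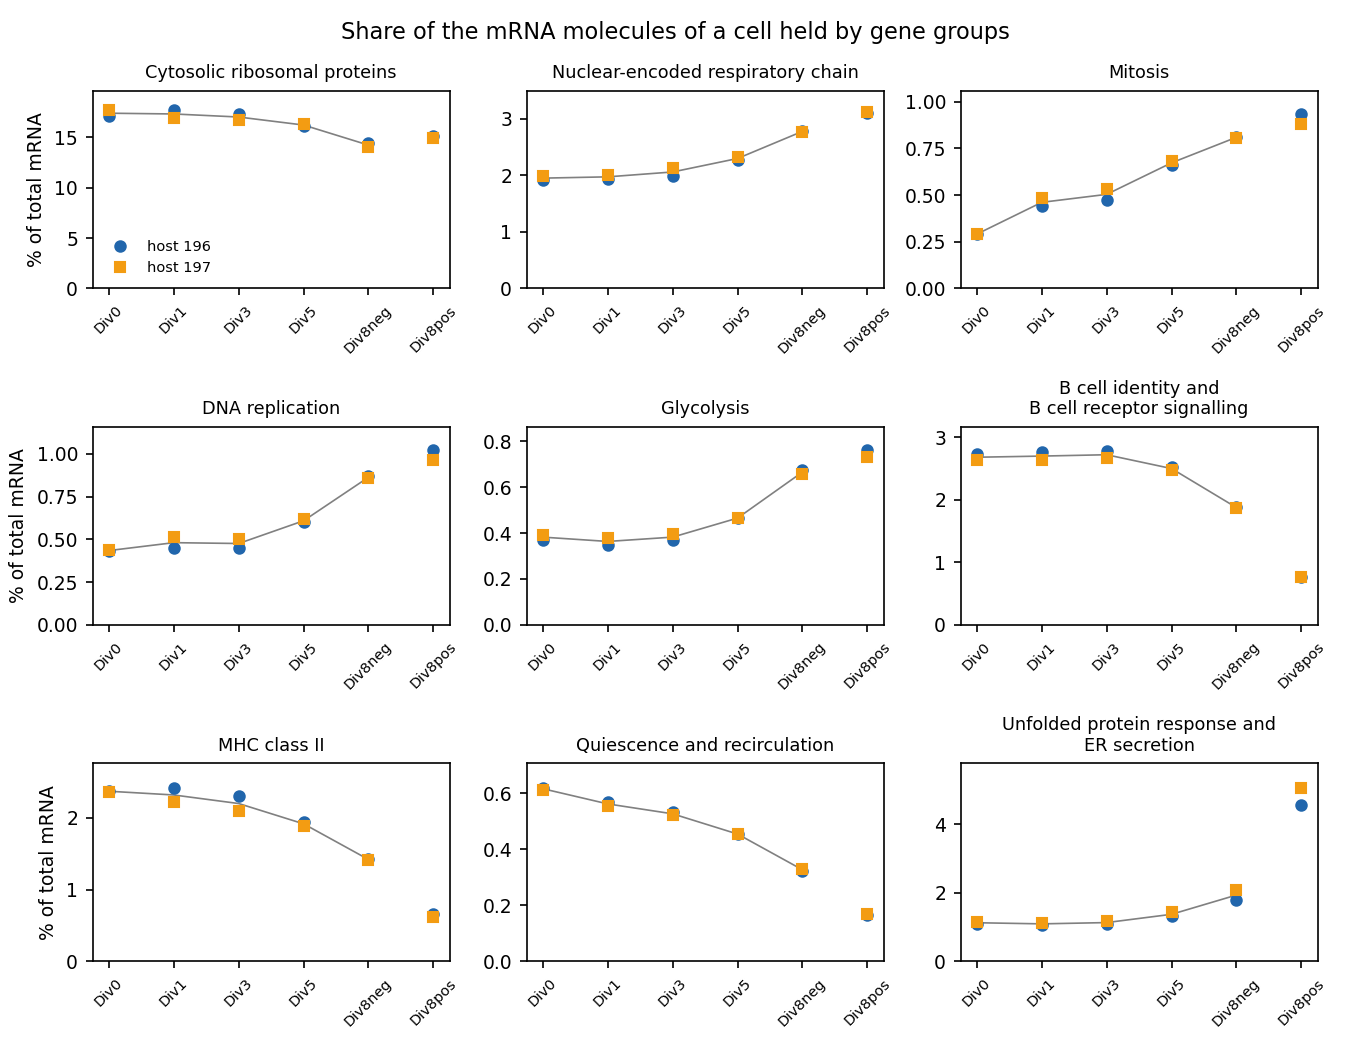
Each panel gives the share of all mRNA molecules of a cell, in percent, held by 1 gene list in the 12 libraries, with circles for host 196, squares for host 197 and a line through the means of the groups up to Div8neg. Respiratory chain, mitosis, replication, glycolysis and endoplasmic reticulum lists are higher in Div8neg than in Div0 in both hosts, and ribosomal protein, B cell identity, MHC class II and quiescence lists are lower.

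Plasma cell genes were mixed. Of 23, 16 grew more and 5 less, but 12 of the 23 were below 1 molecule in a Div0 library. The 11 measured in both groups split into 5 and 5 with a median of 0.10 log2. The list also holds Zbtb32, Bhlhe41, Cxcr3 and Derl3. Zbtb32 stood at 63.1 and 73.8 molecules in Div8neg against 4.36 and 3.90 in the CD138-positive cells. Bhlhe41 stood at 33.1 and 36.0 against 14.5 and 13.6, and Cxcr3 at 30.0 and 31.3 against 20.9 and 20.1. Derl3 was higher in the CD138-positive cells, with 14.6 and 23.7 against 97.8 and 99.9. Prdm1, the factor Blimp-1 that drives plasma cell formation, went from 0.0637 and 0.133 molecules to 2.32 and 3.27. Xbp1, which expands the secretory apparatus, went from 4.61 and 6.10 to 33.5 and 42.1, and Mzb1, a chaperone of antibody secretion, from 13.0 and 17.0 to 84.9 and 101. Each grew more than the total (2.15 ± 0.13, 1.08 ± 0.06 and 0.90 ± 0.04 log2). Prdm1 passed the limit of 1 molecule through Div8neg alone and had to differ. Irf4, needed for the plasma cell fate, rose per cell from 4.22 and 4.95 to 12.01 and 14.6, 2.85-fold and 2.94-fold. Its relative growth was -0.21 ± 0.06, with the call lost without Div0 of host 196 (-0.14) or Div8neg of host 196 (-0.13).

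The machines that make mRNA and protein did not grow as a block. Of 57 genes of RNA polymerase II and its general factors 31 grew more and 16 less, with a median of 0.20 log2 (3.81-fold per cell). Of the 43 measured in both groups, 26 grew more and 12 less. Polr2l, a small shared subunit, went from 1.203 and 1.56 molecules to 8.75 and 9.34 (relative growth 0.91 ± 0.07). Polr2a, the largest subunit, went from 8.90 and 10.3 to 27.8 and 30.1, or 3.12-fold and 2.92-fold, which is within 1.5-fold of the total. Its call as growing less (-0.14 ± 0.05) was lost without Div0 of host 196 (-0.12) or Div8neg of host 196 (-0.10). Of 53 splicing genes 42 grew more and 4 less (median 0.34). Among them Snrpd1, a core protein of the spliceosomal particles, went from 4.18 and 5.64 to 28.9 and 33.2. Of 56 mRNA decay genes 18 grew more and 25 less (median -0.09), close to the split over all genes. Of the 43 measured in both groups, 15 grew more and 19 less.

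On the protein side, ribosome assembly and ribosome parts diverged. Of 41 genes of ribosome biogenesis and MYC targets 37 grew more and 1 less (median 0.40 log2). Odc1, which starts polyamine synthesis and is a known MYC target, went from 4.09 and 5.29 molecules to 31.7 and 35.4. Nop58, a protein of the particles that modify ribosomal RNA, went from 4.77 and 5.90 to 29.9 and 31.0. Myc itself went from 6.20 and 8.62 to 17.5 and 18.6, which was 2.82-fold and 2.16-fold and less than the total (-0.44 ± 0.07, limma adjusted p = 0.00028). Of 48 translation factors 32 grew more and 7 less (median 0.30). In the highest of the 5 bins of mean level lay 31 of them, of which 19 grew more, where 60.4% of all genes did. Eif4e, the cap-binding protein, went from 1.83 and 2.24 to 11.5 and 12.2.

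Of the 82 cytosolic ribosomal protein genes, by contrast, 71 grew less and 5 more, although all 82 rose per cell. Their median relative growth was -0.30 log2 (2.68-fold per cell), and 71 lay within 1.5-fold of the total, so the lag was small and shared. The list went from 4677 and 5914 molecules per cell to 13963 and 14484, and from 17.1 and 17.6% of the total to 14.4 and 13.99%. It still supplied 13.4% of the gain in host 196 and 12.2% in host 197. Rps27 was the lowest, with 62.8 and 79.2 against 129 and 129 molecules (-0.86 ± 0.05). Fau, whose product includes the ribosomal protein S30, went from 67.5 and 84.3 to 149 and 151 (-0.74 ± 0.04). Rps27l, a p53-regulated relative of Rps27, went the other way, from 3.30 and 4.95 to 36.6 and 41.0 (1.50 ± 0.06). Ribosomal protein genes have many processed pseudogenes, and how reads shared with them were counted is not given in the sources used here.

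B cell identity genes grew per cell but lagged the total. Of 46, 33 grew less and 7 more (median -0.47 log2, 2.39-fold per cell), and per cell 38 rose and 4 fell. Ms4a1, which encodes CD20, went from 16.2 and 18.1 molecules to 48.6 and 47.4 (relative growth -0.24 ± 0.05). Cd79a, a signalling chain of the receptor, went from 73.1 and 92.3 to 168 and 185 (-0.62 ± 0.03), and Pax5, the factor that maintains the B cell programme, from 23.3 and 27.7 to 49.6 and 51.7 (-0.73 ± 0.05). All 3 genes rose per cell, as 96.6% of the 8175 genes did. Bach2, which holds back the plasma cell programme, fell in number, from 1.09 and 1.21 to 0.554 and 0.692 (per cell -0.79 ± 0.20 log2, limma adjusted p = 0.00011). It passed the limit of 1 molecule through Div0 alone and had to differ.

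Antigen presentation lagged further. All 14 genes of the MHC class II list, which also holds Ctss and Cd83, grew less than the total. Their median was -0.94 log2 (1.72-fold per cell), and 5 of them, Cd83 included, lagged by at least 2-fold. The list rose from 649 and 792 molecules per cell to 1381 and 1460 but its share fell from 2.37 and 2.36% to 1.43 and 1.41%. Ctss, the protease cathepsin S that trims the invariant chain, stood at the median with 31.1 and 37.8 against 57.5 and 61.3. H2-Ob, a chain of the peptide-loading inhibitor H2-O, stood at 20.8 and 24.9 against 21.8 and 23.2. Its partner chain H2-Oa went from 19.9 and 22.7 to 15.4 and 14.3 (per cell -0.51 ± 0.23 log2, limma adjusted p = 0.025). That per-cell call was lost when any 1 of the 4 libraries was left out (-0.42 to -0.61). Relative to the total, H2-Oa and H2-Ob fell behind by 2.24 ± 0.10 and 1.74 ± 0.05.

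Of 18 genes of MHC class I and its loading pathway 14 grew less and 1 more (median -0.61, 2.16-fold per cell). B2m, the light chain of class I, went from 23.3 and 29.5 molecules to 56.0 and 62.1. Tap1, a peptide transporter, went from 9.96 and 12.04 to 23.3 and 26.1. H2-Q7 stood at 22.5 and 25.7 against 26.1 and 30.0, and H2-Q8 at 22.2 and 26.5 against 23.6 and 27.3. Both had relative growth below -1 (-1.51 ± 0.06 and -1.66 ± 0.04), and neither was called per cell. The H2-Q genes are near-identical copies of one another, so their separate values are uncertain.

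Genes that mark quiescent, recirculating lymphocytes were next to MHC class II at the low end. Of 27, 21 grew less and 3 more, 12 at least halved their share, and the median was -0.87 log2 (1.81-fold per cell). S1pr1, the receptor by which lymphocytes leave tissue, stood at 6.26 and 6.50 against 6.02 and 5.67. Btg1, an antiproliferative gene, stood at 9.86 and 11.9 against 10.2 and 11.0, and Cxcr5, which guides B cells into follicles, at 20.3 and 23.5 against 18.7 and 19.9. None of the 3 was called per cell, and each fell behind the total by over 1.7 on the log2 scale (-1.85 ± 0.08, -1.75 ± 0.05 and -1.90 ± 0.11). Ccr7, the lymph node homing receptor, did rise, from 2.88 and 3.68 to 5.51 and 6.50. Tsc22d3, a glucocorticoid-induced gene also known as Gilz, went from 1.75 and 2.24 to 1.13 and 1.19 (per cell -0.72 ± 0.21), a call lost without Div8neg of host 197 (-0.52, limma adjusted p = 0.084).

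Signalling and response genes lagged as well. Of 40 genes of the NF-kB and Toll-like receptor response 25 grew less and 6 more (median -0.38). Of 17 immediate early genes 11 and 4 did so (median -0.51), and of 28 interferon-stimulated genes 22 and 3 (median -0.60). Among those measured in both groups, 22 of 31, 11 of 13 and 17 of 23 grew less, and 2, 2 and 3 more. Tlr1 stood at 7.12 and 7.37 against 8.62 and 8.49 molecules. The interferon regulatory factor Irf1 stood at 7.50 and 9.23 against 9.16 and 10.3. Their relative growth was -1.49 ± 0.05 and -1.50 ± 0.04, and neither was called per cell. Zfp36, which targets AU-rich mRNAs for decay, stood at 18.3 and 23.2 against 16.4 and 19.3 (-1.94 ± 0.04 relative to the total). It was named through the mRNA decay, quiescence and Zfp lists, not the lists of this paragraph. Cd80, a costimulatory ligand, grew more, with 0.0938 and 0.131 against 3.43 and 3.90 (2.43 ± 0.10). It passed the limit of 1 molecule through Div8neg alone and had to differ.

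Of 131 Zfp-named zinc finger genes, most of them low, 101 grew less and 9 more (median -0.50). Of the 40 measured in both groups, 33 and 4 did so. In the lowest of the 5 bins of mean level lay 22 of these 40, of which 21 grew less, where 80.5% of all genes did. Of the 14 genes of the MHC class II list, by contrast, 11 lay in the highest bin. All 11 grew less, where 28.2% of all genes did. Zfp335 stood at the median with 2.71 and 3.12 against 6.60 and 7.32 molecules. The 22 apoptosis genes split into 8 that grew more and 12 less. Of the 7 measured in both groups, 2 grew more and 5 less. The death receptor Fas went from 0.552 and 0.667 molecules to 4.84 and 4.52 (1.03 ± 0.08). It too passed the limit of 1 molecule through Div8neg alone and had to differ. Bcl2, which blocks mitochondrial death, stood at 1.72 and 1.79 against 2.56 and 2.82 (-1.14 ± 0.07).

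Among genes at 10 or more molecules in the higher group, the 12 furthest above the total stood between 0.138 and 2.79 molecules in Div0. Of these 12, 10 passed the limit of 1 molecule through Div8neg alone and had to differ, so the values of the set are given without a test. Gstt1, a glutathione transferase, went from 0.138 and 0.340 molecules to 16.8 and 19.4, which is 122-fold in host 196 and 57.1-fold in host 197. Slpi, a secreted protease inhibitor, went from 0.193 and 0.652 to 23.5 and 20.5, and the transcription factor Bhlhe41 from 0.437 and 0.983 to 33.1 and 36.0. Zbtb32, a repressor known to restrain B cell memory responses, went from 1.03 and 2.10 to 63.1 and 73.8. Cxcr3, a chemokine receptor that T-bet controls, went from 0.475 and 0.878 to 30.0 and 31.3, and Tbx21, which encodes T-bet, from 0.631 and 1.21 to 21.4 and 24.5. In all 6 genes Div0 of host 197 was higher than Div0 of host 196, so the fold was larger in host 196, and no Div8neg library came near a Div0 library. Relative growth ran from 2.83 ± 0.10 for Tbx21 to 4.09 ± 0.11 for Gstt1.

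The rest of that set were Fah, Spn, Derl3, Gstt2, Plxnb2 and Lgals1. Fah, the last enzyme of tyrosine breakdown, went from 0.246 and 0.413 molecules to 10.8 and 15.02. Spn encodes CD43, the antigen that the donor B cells were selected to lack, and went from 0.389 and 0.653 to 14.7 and 18.04. Lgals1, galectin 1, went from 0.975 and 1.57 to 20.8 and 29.3. Gstt2 lies in the same family as Gstt1, and how reads common to them were counted is not given. Their Div0 values rest on 71 counts or more per library, against 26 for Gstt1 in host 196.

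Only 5 genes at 10 or more molecules in Div0 fell per cell in this fit. Icosl, the ligand of the T cell costimulator ICOS, fell from 12.9 and 14.1 molecules to 3.37 and 2.58. Faim3, which encodes an Fc receptor for IgM, fell from 24.9 and 29.3 to 6.33 and 8.35. Cr2, the complement receptor CD21, fell from 20.5 and 20.4 to 9.21 and 7.73, and Fcer2a, the low-affinity IgE receptor CD23, from 25.3 and 31.0 to 13.4 and 10.4. The per-cell change was -2.16 ± 0.23, -1.88 ± 0.23, -1.27 ± 0.23 and -1.24 ± 0.23 log2, with limma adjusted p of 4.8e-21, 3.6e-16, 3.3e-08 and 6.3e-08. With the spread of each gene alone these were 0.00060, 0.00054, 0.00099 and 0.0073. The groups did not overlap in any of them, but the genes were chosen for their fall in these same libraries, so this adds nothing. H2-Oa, described above, was the fifth. The other 7 of the 12 genes furthest below the total at this level were Zfp36, Cxcr5, Acap1, Btg1, H2-Ob, H2-Q8 and Cd83, none of them called per cell. Their Div8neg number was between 0.833 and 1.15 times the Div0 number of the same host.

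Lower-expressed genes of the gene lists fell as well. Zfp318, needed for the IgD form of the heavy chain mRNA, fell from 2.66 and 2.91 molecules to 0.310 and 0.354. Ell3, of the ELL family of elongation factors, fell from 6.40 and 7.40 to 1.09 and 1.11. Their per-cell changes were -2.74 ± 0.21 and -2.54 ± 0.22 log2, and their relative growth -4.47 ± 0.11 and -4.27 ± 0.24. Egr3, an immediate early transcription factor, fell from 2.58 and 2.73 to 1.29 and 1.41 (per cell -0.93 ± 0.21). Ell3 stands in the polymerase list and Zfp318 in the Zfp list, and each was the only gene of its list that fell. Zfp318 passed the limit of 1 molecule through Div0 alone and had to differ.

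**Figure D4:**
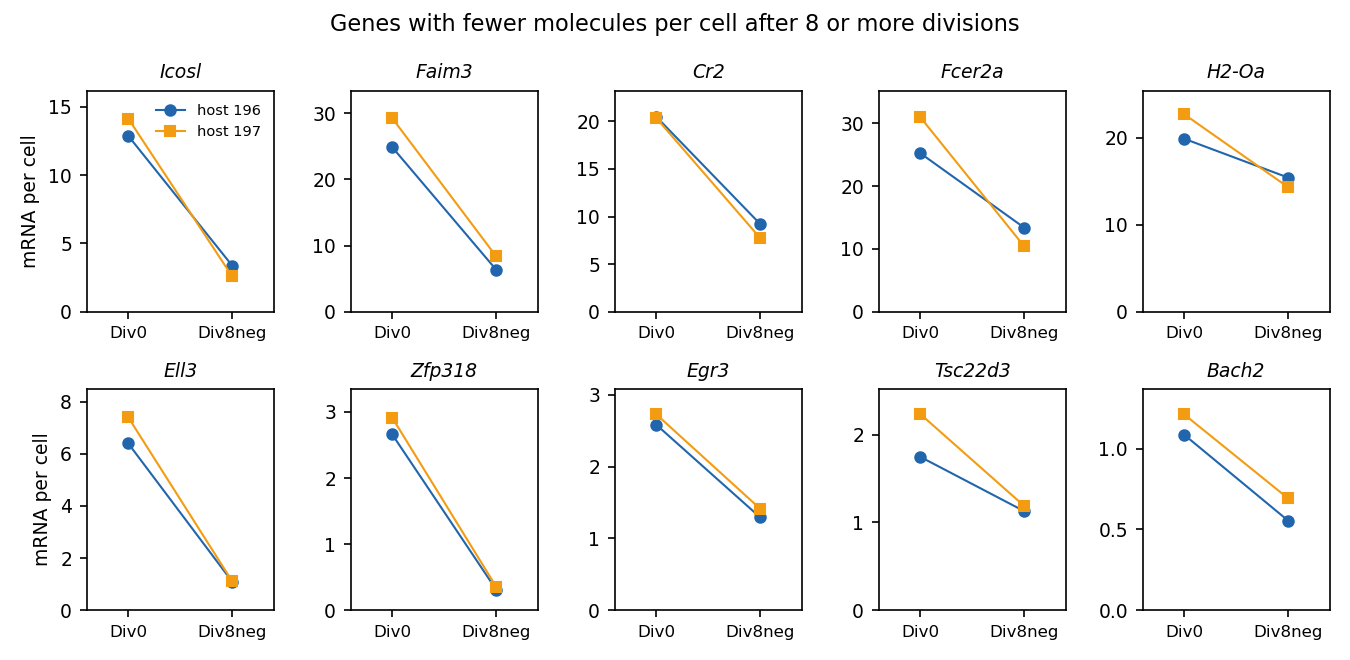
Molecules per cell in Div0 and Div8neg for 10 genes called lower per cell, with a line joining the libraries of 1 host (circles host 196, squares host 197) and y axes that start at 0. Every line goes down, steeply for Icosl, Faim3, Ell3 and Zfp318 and least for H2-Oa, whose call was lost when any 1 library was left out.

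In the groups between, the 54 genes that fell were followed by their median. It was, in host 196, 2.00 molecules in Div0, 2.63 in Div1, 2.00 in Div3, 2.00 in Div5 and 1.09 in Div8neg, and 2.25, 3.29, 2.13, 1.73 and 1.11 in host 197. Over all 8175 genes the median in host 196 was 1.36, 2.06, 2.09, 3.63 and 4.67. In host 197 it was 1.62, 2.93, 2.60, 3.27 and 5.08, so it too was lower in Div3 than in Div1. The genes were chosen by their Div0 and Div8neg values, so only the groups between are new here, and they are given without a test.

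Genes often used as internal standards did not grow alike. Of 18, 12 grew more than the total, 3 less and 3 were not called (median 0.34 log2). In the highest of the 5 bins of mean level lay 14 of them, of which 9 grew more, where 60.4% of all genes did. The lowest was B2m at 2.40-fold and 2.10-fold per cell in the 2 hosts, and the highest Tfrc, the transferrin receptor, at 8.38-fold and 7.90-fold. Gapdh went from 10.6 and 14.5 molecules to 72.2 and 75.3, 6.82-fold and 5.21-fold, and Hprt from 3.71 and 4.38 to 22.6 and 23.1. Tbp, the TATA-binding protein, went from 1.00 and 1.22 to 3.78 and 4.34 (relative growth 0.06 ± 0.06), and the ribosomal protein Rplp0 from 84.9 and 109 to 304 and 317 (-0.04 ± 0.03). The 95% interval of both lay within 1.5-fold of the total, the sign of each turning under 1 or more other settings.

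**Figure D5:**
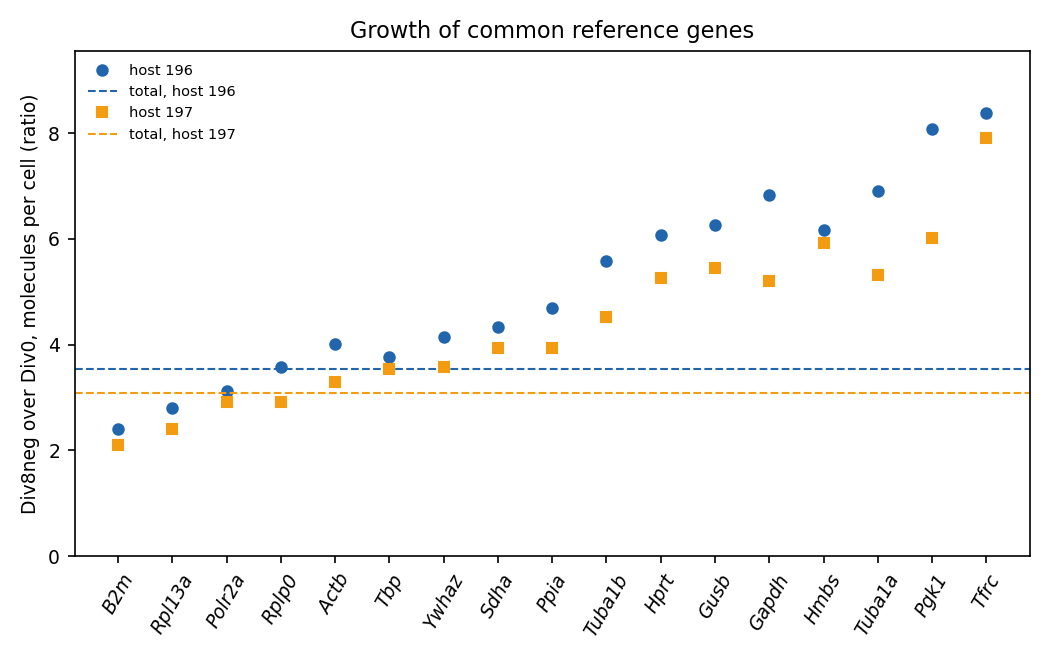
Ratio of Div8neg to Div0 in molecules per cell for 17 common reference genes, with circles for host 196 and squares for host 197 and dashed lines for the ratio of the total in each host. The genes run from B2m, below the lines, to Tfrc at over 7 in both hosts, and host 196 lies above host 197 for each gene.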

How the data were processed

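RNA was measured in 12 libraries, 4 of which form the comparison. The deposited counts are of reads that fell on KnownGenes exons of build mm9, per the file headers. The submitters' processing notes name Picard, R 3.2.2 and mm9 with no role, and no source used here names the aligner or the counting program. The deposited mRNAs per cell equalled the deposited FPKM times a single spike-in factor for each library (checked at a relative tolerance of 1e-08), so levels are per exon length. Of 21761 rows, 90 without a symbol were left out (at most 0.094% of counts).

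Genes at 1 or more mRNA per cell in at least 2 of the 12 libraries (8992) were fitted with limma 3.58.1 in R 4.3.3 on log2(mRNAs per cell + 0.1), with trend, the 6 groups and host as a block. Tests were two-sided with Benjamini-Hochberg adjustment and a threshold of 0.05. Relative growth subtracts log2 of the library's total. Fitted folds are on the log2(value + 0.1) scale, which understates changes of low genes, and folds given per host are plain ratios. The pairing comes from the host number, since libraries of 1 number come from 1 animal. The host differences of Div0 and Div8neg correlated across genes with r = 0.152 (-0.0398 to 0.495 over the pairs of groups). edgeR 4.0.16 and DESeq2 1.42.0 on the counts, other pseudocounts, filters and totals, and leaving out each library were the alternatives. Only fits of relative growth were tested on simulated data, with a pseudocount scaled to each library. The per-cell fits and the fixed pseudocount of 0.1 were not tested in this way.

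Named genes were, at 10 or more molecules in the higher group and with the same sign in both hosts, the 12 called with the largest and the 12 with the smallest relative growth, the 10 with the largest fall, the 10 with the largest gain and the 5 most abundant within 1.5-fold of the total. Each list added the 4 called genes furthest from the total and the one nearest its median, beside all reference genes and a set of anchors. The genes compared, the lists and the rules were chosen with earlier results of these data known. A few genes that these rules name are not reported here.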

Additional observations from a re-analysis of the deposited data

How the results depend on the processing

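Under settings other than a pseudocount of 1, a narrower set of genes and other margins, the counts of genes called stayed within 1.5 times their values. A pseudocount of 1 molecule, near the level of many genes in Div0, gave 1208 genes that grew more and 6019 less, with 81 and 1430 past 2-fold. It moved the median relative growth of all tested genes from -0.11 to -0.61 log2, while edgeR on summed counts moved it to 0.04. Restricted to genes measured in both groups, 4879 rose and 27 fell per cell, 1837 grew more, 166 of them at least 2-fold, and 2812 lay within 1.5-fold. A margin of 1.2-fold left 1121 genes near the total, and one of 2-fold 6614. Without the replicate block, which pairs libraries by host, 2818 grew more and 3419 less, 7886 rose and 52 fell per cell, and no count moved by over 1.5 times. With the spread of each gene alone, a setting added after seeing the data as was the proportional pseudocount, 7840 rose and 46 fell.

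Leaving out 1 library (the partner is then assumed to vary like the other groups) gave 7703 to 7800 genes that rose and 39 to 46 that fell per cell, 2558 to 2759 that grew more and 3080 to 3381 less. The total grew 3.09-fold to 3.54-fold with 1 host alone, and 3.23-fold to 3.38-fold under other sums and spike-in factors. Of 147 named genes, 144 were called relative to the total and 133 kept that call and sign under every alternative; per cell, 118 of 127 did.

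Signs that turned were those of values near 0 or of low genes, and the cause was not tested. Relative growth with a pseudocount of 1 was -0.30 for Wdr12, -0.028 for Tcea1, -0.73 for Rgs1, -0.24 for Sec24d and -0.47 for Tbp. With edgeR on summed counts Cnot10 stood at 0.032 and Rplp0 at 0.0087, and Rplp0 ran from -0.081 to 0.0084 with 1 library left out. Per cell, the same ranges were -0.13 to 0.077 for Btg1, -0.11 to 0.086 for H2-Ob, -0.0058 to 0.14 for H2-Q8 and -0.021 to 0.098 for Ddx58.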
